A study of Saccharomyces cerevisiae with 12 samples.

Results

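The 39 genes described here encode the soluble factors that start, drive and end protein synthesis in budding yeast, *Saccharomyces cerevisiae*. They were taken by gene name from the deposited annotation, which holds 6692 coding genes among 20619 features. RNA was sequenced from the cytoplasmic fraction and from the total lysate of 2 strains, and every culture was kept at 37 °C for 1 h. The 4 groups, with 3 libraries each, were mex67-5 xpo1-1 cytoplasm, mex67-5 xpo1-1 total, wild-type cytoplasm and wild-type total. The labels give the strain background of all libraries as BY4741. In the study's strain list the double mutant lacks the chromosomal copies of MEX67 and XPO1, which were replaced by HIS3 and TRP1, and lives on plasmids with the temperature-sensitive alleles mex67-5 and xpo1-1. Mex67 is the main export receptor of mRNAs and Xpo1, also named Crm1, is a karyopherin that exports proteins and some RNAs, and 37 °C is restrictive for the mutant alleles. In that list the BY4741 wild type carries other auxotrophic markers than the mutant and comes from another source. The mutations, the plasmids, the markers and any difference in background therefore separate the strains and cannot be told apart. The cytoplasmic fraction is the supernatant of lysed spheroplasts after centrifugation, and the study describes the 3 samples of a group as biologically independent. The comparison of cytoplasm with total asks how an RNA is distributed in the cell, and the comparison of the strains asks how this depends on the export receptors.

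Translation begins when the eIF4F complex (cap-binding eIF4E, scaffold eIF4G and helicase eIF4A) prepares a capped mRNA. A small ribosomal subunit carrying eIF1, eIF1A, eIF3, eIF5 and the eIF2 complex with initiator tRNA then scans to the start codon, and eIF5B joins the large subunit. eIF2B recharges eIF2 with GTP. During elongation eEF1A brings aminoacyl-tRNAs, eEF2 moves the ribosome, and fungi also need the ATPase eEF3, while eIF5A helps at difficult peptide bonds. eRF1 and eRF3 end the chain. Genes of this machinery are expressed at high levels in growing yeast, and several exist as duplicated pairs from an ancient genome duplication.

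The duplicated pairs decide how well a 50-base read can be placed, so the stretch of 30 coding bases with the most differences is shown for the pairs of equal length on which the results turn. Sequences are those of the reference genome R64, in which all 39 coding sequences of the deposited annotation start with ATG. Capitals mark the bases that differ between the 2 genes, and each line runs 5′ to 3′ along the coding strand. The stretches are coding bases 733 to 762 of TEF1 (chrXVI:701326-701355, + strand) and TEF2 (chrII:478403-478432, + strand), 199 to 228 of TIF1 (chrXI:555185-555214, + strand) and TIF2 (chrX:154464-154493, - strand), 178 to 207 of YEF3 (chrXII:636957-636986, + strand) and HEF3 (chrXIV:606496-606525, + strand), and 282 to 311 of HYP2 (chrV:85957-85986, + strand) and ANB1 (chrX:525071-525100, - strand).
TEF1: agattgccattgcaagatgtttacaagatT
TEF2: agattgccattgcaagatgtttacaagatC
TIF1: caatctggtactggtaagaccggtacCttT
TIF2: caatctggtactggtaagaccggtacTttC
YEF3: GACaaGAaGaCCgcTGCTaacGcCAtgCAA
HEF3: AGTaaACaAaAGgcGCTCaacAcGCtgGGT
HYP2: CattgatgaCggTtTcttgtcTttgatgaA
ANB1: TattgatgaTggCtActtgtcCttgatgaC

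TEF1 and TEF2, both coding for eEF1A, differ at 2 of 1374 coding bases, and EFT1 and EFT2, both coding for eEF2, at 4 of 2526. TIF1 and TIF2, both coding for eIF4A, differ at 6 of 1185. Of the 50-base windows of these genes with their UTRs, 71.6 and 73.7% of TEF1 and TEF2, 77.5 and 79.5% of EFT1 and EFT2, and 62.3 and 58.1% of TIF1 and TIF2 occur at another place in the genome. Whether reads that match several places were counted is not stated, so the counts of these 6 genes are uncertain as values of a single gene. YEF3 and its relative HEF3 are 74.5% identical over 3132 bases and HYP2 and ANB1 91.1% identical over 471 bases. No 50-base window of these 4 genes, or of the other 29 members, occurs elsewhere.

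Reads at the coding genes lay mostly on the strand opposite to the annotated RNA. The library kit is labelled as not keeping strand and the strand setting of the counting is not given in the sources used here, so the assignment of a read to mRNA or antisense rests on the measured asymmetry alone. The mRNA of a member was read from the opposite-strand feature that covers at least 0.5 of the gene, and its antisense signal from the gene's own feature. At TEF2, where no coding gene overlaps on the other strand, the signal in the own feature was 0.00664 to 0.0619% of the mRNA level over the 12 libraries. This was the smallest upper limit of the members read. At DBP1 and SUI2, also without such an overlap, the signal reached 46.1 and 105%. An opposite-strand feature was found for 37 of the 39 members. SUI3, the β subunit of eIF2, and TIF34, the i subunit of eIF3, had none and their mRNAs were not read. For 16 of the 37, at most 15% of the feature lay over another coding gene on the member's strand. The other 21 features also hold reads of a neighbour, over up to 88.2% of the length for TIF11 (eIF1A) and 84.4% for CDC33 (eIF4E), and their values are values of mixed features.

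Counts summed to between 24532091 and 37361004 per library, and features that overlap on a strand hold the same reads. Small nucleolar RNAs, which work in the nucleus, took 1.40 to 1.80% of the counts in mutant cytoplasm against 4.08 to 5.20% in mutant total, and 1.53 to 2.16% in wild-type cytoplasm against 3.07 to 3.27% in wild-type total. Features of the mitochondrial chromosome took 3.31 to 6.41% in mutant cytoplasm against 9.47 to 14.3% in mutant total, and 2.32 to 2.70% in wild-type cytoplasm against 4.34 to 6.18% in wild-type total. The features used for the 37 mRNAs held 1.27 to 1.61% of the counts in mutant cytoplasm, 1.52 to 1.77% in mutant total, 1.67 to 1.86% in wild-type cytoplasm and 2.04 to 2.49% in wild-type total. Opposite-strand counts of the marker HIS3 were 10909 to 20357 in the mutant libraries and 11 to 329 in the wild-type libraries, with 329 in wild-type total replicate 1 and 44 and 43 in the other two of that group. MEX67 had 8532 to 11609 such counts in the mutant libraries and 1782 to 2581 in the wild-type libraries.

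Levels are given as RPKM, reads per kilobase of the feature and per 1e+06 reads after TMM scaling of the library sizes over the 12 libraries. In wild-type total, YEF3 (eEF3) was the highest of the 37 members at 2213 ± 306 RPKM, followed by HYP2 (eIF5A) at 1285 ± 221 RPKM (SD, n = 3 each). HEF3, at 5.04 ± 0.251 RPKM, and DBP1, at 7.49 ± 0.825 RPKM, were the lowest (SD, n = 3 each). The duplicated genes YEF3 and HEF3 thus stood at opposite ends of the range.

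**Figure D1:**
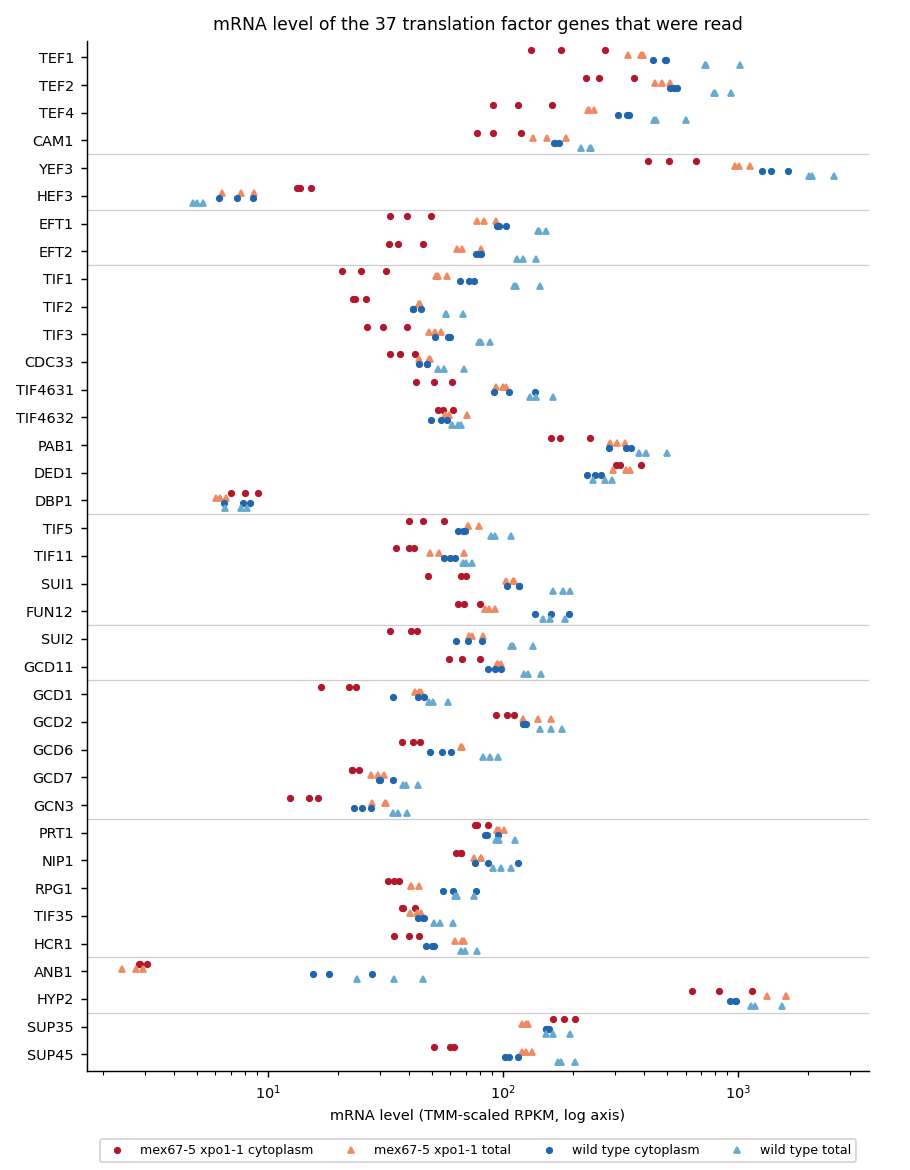
mRNA level of each of the 37 members that were read, in TMM-scaled RPKM on a log axis, with a point for each of the 12 libraries and rows grouped by role. At TEF1, YEF3 and TIF1 the wild-type total libraries lie farthest right and the mutant cytoplasm libraries farthest left, while at HEF3 the order is the opposite, and ANB1 is lower in the 6 mutant libraries.

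Cytoplasm was compared with total lysate within each strain by edgeR's quasi-likelihood test over all features with a mean count above 40, and calls are at a Benjamini-Hochberg adjusted p under 0.05. In mutant cytoplasm 26 of the 37 mRNAs were lower than in mutant total and 2 were higher. In wild-type cytoplasm 19 were lower than in wild-type total and 1 was higher. Of all 13763 features tested in the mutant, 28.7% were lower and 30.0% higher, and of all 11976 features tested in wild type, 17.6% were lower and 22.3% higher. All features include antisense and intergenic ones. Of the coding genes read in the same way, 1889 of 4772 were lower and 953 higher in the mutant. In wild type, 996 of 4626 were lower and 957 higher. Values after ± beside a log2 fold change are standard errors. The members' median log2 fold change was -0.72 in the mutant, against -0.01 for all features, and -0.41 in wild type, against 0.02 for all features. Libraries of cytoplasm and total lysate did not overlap for 33 of the 37 members in the mutant, against 65.5% of all features tested, and for 28 in wild type, against 53.0%. Of the 16 members with little of another gene in their feature, 10 were lower and 2 higher in mutant cytoplasm, and 7 were lower and 1 higher in wild-type cytoplasm. In the bulk libraries, a lower level in each cell and a lower level in fewer cells cannot be told apart.

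These directions are relative to the bulk of the measured RNA. When the libraries were scaled to the mitochondrial features instead, 17 members were higher and 0 lower in mutant cytoplasm, and 26 were higher and 0 lower in wild-type cytoplasm, with the median of all features at 1.60 in the mutant comparison and 1.15 in that of wild type. Of all features, 85.2% were then higher in the mutant comparison and 88.1% in that of wild type. Mitochondrial features themselves took a smaller share of the counts in cytoplasm than in total lysate, so this scaling raises most other RNAs there. All 26 members that were lower in mutant cytoplasm and all 19 that were lower in wild-type cytoplasm then had a log2 fold change above 0. The median of the members lay below that of all features, by -0.72 under TMM and -0.65 under mitochondrial scaling in the mutant, and by -0.43 under both in wild type. A change of scaling shifts all features of a comparison by nearly the same amount. This distance was thus almost fixed and is no check of the scaling. With library totals alone, 11 members were lower and 6 higher in mutant cytoplasm, against 7.16% and 51.4% of all features. The distance of the medians was -0.72 there. The directions given below for fractions are those under TMM scaling, and every mRNA decrease called in the cytoplasm has a change above 0 under mitochondrial scaling. Replicate numbers were taken as pairs in wild type, though the correlations behind this do not show shared cultures. With the replicate number as a block, 27 members were lower and 1 higher in wild-type cytoplasm, against 24.6% and 27.6% of all features.

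The genes of eEF1 and eEF2, and YEF3 of eEF3, were lower in the cytoplasmic fraction of both strains. TEF1 had 178, 133 and 274 RPKM in mutant cytoplasm against 396, 388 and 342 RPKM in mutant total, and 489, 438 and 497 RPKM in wild-type cytoplasm against 1020, 727 and 733 RPKM in wild-type total. The groups do not overlap in either strain. The log2 fold change was -0.98 ± 0.24 for the mutant (SE, adjusted p = 0.00797) and -0.77 ± 0.15 for wild type (SE, adjusted p = 0.0072). TEF2, its near-identical partner, had 257, 227 and 363 RPKM in mutant cytoplasm against 476, 513 and 446 RPKM in mutant total, and 518, 538 and 550 RPKM in wild-type cytoplasm against 933, 789 and 799 RPKM in wild-type total. Its groups did not overlap either, and it fell by 0.79 in mutant cytoplasm and by 0.62 in wild-type cytoplasm on the log2 scale.

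TEF4 and CAM1 code for the γ subunit of eEF1B, which exchanges GDP for GTP on eEF1A. TEF4 had 116, 90.9 and 163 RPKM in mutant cytoplasm against 231, 246 and 234 RPKM in mutant total, and 347, 309 and 340 RPKM in wild-type cytoplasm against 603, 450 and 441 RPKM in wild-type total. CAM1 had 90.9, 77.5 and 120 RPKM in mutant cytoplasm against 155, 185 and 134 RPKM in mutant total, and 167, 175 and 165 RPKM in wild-type cytoplasm against 238, 234 and 215 RPKM in wild-type total. Within each strain all cytoplasmic libraries of both genes lay below those of total lysate. TEF4 fell by 0.97 in mutant cytoplasm and by 0.56 in wild-type cytoplasm on the log2 scale, and CAM1 fell by 0.75 in mutant cytoplasm and by 0.41 in wild-type cytoplasm. Of the TEF4 feature, 25.0% of the length lies over VMA5.

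The eEF2 genes behaved likewise. EFT1 had 39.3, 33.1 and 49.6 RPKM in mutant cytoplasm against 77.9, 83.6 and 93.5 RPKM in mutant total, and 96.6, 103 and 94.5 RPKM in wild-type cytoplasm against 153, 143 and 142 RPKM in wild-type total. EFT2 had 35.8, 32.7 and 46.0 RPKM in mutant cytoplasm against 64.0, 67.2 and 80.9 RPKM in mutant total, and 81.2, 80.3 and 77.2 RPKM in wild-type cytoplasm against 139, 115 and 122 RPKM in wild-type total. Neither gene has overlapping groups within a strain. The decrease of EFT1 in mutant cytoplasm, by 1.09 ± 0.17 on the log2 scale (SE, adjusted p = 0.00085), was among the 3 largest of the members, and its decrease in wild-type cytoplasm was 0.54. EFT2 fell by 0.92 in mutant cytoplasm and by 0.63 in wild-type cytoplasm.

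The 2 eEF3 genes went opposite ways. YEF3 had 508, 415 and 666 RPKM in mutant cytoplasm against 978, 1018 and 1125 RPKM in mutant total, and 1633, 1264 and 1380 RPKM in wild-type cytoplasm against 2564, 2005 and 2068 RPKM in wild-type total. It fell by 1.00 ± 0.23 in mutant cytoplasm (SE, adjusted p = 0.00544) and by 0.60 ± 0.15 in wild-type cytoplasm (SE, adjusted p = 0.0164). HEF3, an eEF3 gene that is little used under standard growth, had 13.4, 13.7 and 15.4 RPKM in mutant cytoplasm against 6.40, 7.72 and 8.72 RPKM in mutant total, and 6.19, 8.69 and 7.39 RPKM in wild-type cytoplasm against 4.81, 5.31 and 5.00 RPKM in wild-type total. All its cytoplasmic libraries lay above those of total lysate of the same strain. It rose by 0.87 ± 0.14 in mutant cytoplasm (SE, adjusted p = 0.000902) and by 0.59 ± 0.15 in wild-type cytoplasm (SE, adjusted p = 0.0163). The wild-type call was lost without wild-type cytoplasm replicate 3 (adjusted p = 0.0618), wild-type total replicate 1 (adjusted p = 0.0606) or wild-type total replicate 3 (adjusted p = 0.0596). The difference between the genes was not tested. HEF3 had 358 to 1450 counts per library and shares no window of 50 bases with YEF3. Its antisense signal was higher in mutant cytoplasm too, by 1.09 ± 0.23 (SE, adjusted p = 0.00329). In wild-type cytoplasm that signal rose by 2.21 ± 0.42 (SE, adjusted p = 0.00603). It averaged 9.47% of the mRNA level in mutant cytoplasm against 8.30% in mutant total, and 25.2% in wild-type cytoplasm against 8.69% in wild-type total. On the opposite strand HEF3 overlaps YNL013C over 728 bases and the lncRNA XUT_14R-269.

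Among the 9 genes of the cap complex, the poly(A)-binding protein and the helicases, 6 were lower in mutant cytoplasm and 3 in wild-type cytoplasm, and none was higher. With the replicate block CDC33, TIF4631 and PAB1 were called lower in wild-type cytoplasm too. The 3 without the block were TIF1, TIF2 and TIF3, which code for eIF4A (TIF1 and TIF2) and its stimulator eIF4B. TIF1 had 24.9, 20.8 and 31.9 RPKM in mutant cytoplasm against 53.2, 57.8 and 51.9 RPKM in mutant total, and 65.6, 72.2 and 75.5 RPKM in wild-type cytoplasm against 144, 112 and 114 RPKM in wild-type total. It fell by 1.10 ± 0.16 in mutant cytoplasm (SE, adjusted p = 0.000648) and by 0.76 ± 0.13 in wild-type cytoplasm (SE, adjusted p = 0.00467). TIF2 had 23.0, 23.6 and 26.3 RPKM in mutant cytoplasm against 44.0, 44.6 and 44.2 RPKM in mutant total, and 41.4, 41.4 and 44.9 RPKM in wild-type cytoplasm against 68.0, 57.3 and 57.5 RPKM in wild-type total. The groups of both genes are separate within each strain. TIF2 fell by 0.90 in mutant cytoplasm and by 0.49 in wild-type cytoplasm, in a feature with 42.5% of its length over GLG2 and YUR1.

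The eIF4G genes differed in their calls. TIF4631 had 51.0, 42.8 and 60.8 RPKM in mutant cytoplasm against 93.4, 101 and 103 RPKM in mutant total, and 138, 91.9 and 106 RPKM in wild-type cytoplasm against 164, 131 and 138 RPKM in wild-type total. It fell by 0.97 ± 0.16 in mutant cytoplasm (SE, adjusted p = 0.00115), while the wild-type groups overlap and were called with the replicate block alone (adjusted p = 0.0148). TIF4632 had 55.7, 53.1 and 61.7 RPKM in mutant cytoplasm against 56.9, 70.7 and 59.0 RPKM in mutant total, and 49.7, 58.2 and 54.7 RPKM in wild-type cytoplasm against 66.5, 64.8 and 61.0 RPKM in wild-type total. Its mutant groups overlap, with a log2 fold change of -0.16 ± 0.14 and an adjusted p of 0.352. The difference between these genes was not tested, and 24.3% of the TIF4631 feature and 35.7% of the TIF4632 feature lie over other genes. PAB1, the poly(A)-binding protein, fell by 0.72 in mutant cytoplasm (adjusted p = 0.00755), and its wild-type change of -0.38 had an adjusted p of 0.0596 without and 0.00954 with the replicate block.

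DED1 and DBP1 code for related helicases that help ribosomes through structured leaders, and neither was called between fractions in either strain. DED1 had 314, 304 and 386 RPKM in mutant cytoplasm against 349, 335 and 295 RPKM in mutant total, and 263, 248 and 228 RPKM in wild-type cytoplasm against 292, 273 and 242 RPKM in wild-type total. DBP1 had 7.99, 6.99 and 9.15 RPKM in mutant cytoplasm against 6.68, 6.28 and 6.01 RPKM in mutant total, and 6.56, 8.40 and 7.85 RPKM in wild-type cytoplasm against 6.57, 8.15 and 7.74 RPKM in wild-type total. The groups overlap in both strains, except those of DBP1 in the mutant. The log2 fold change of DBP1 was 0.32 ± 0.13 there, with an adjusted p of 0.0602, and that of DED1 was 0.01 ± 0.16 with an adjusted p of 0.97.

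**Figure D2:**
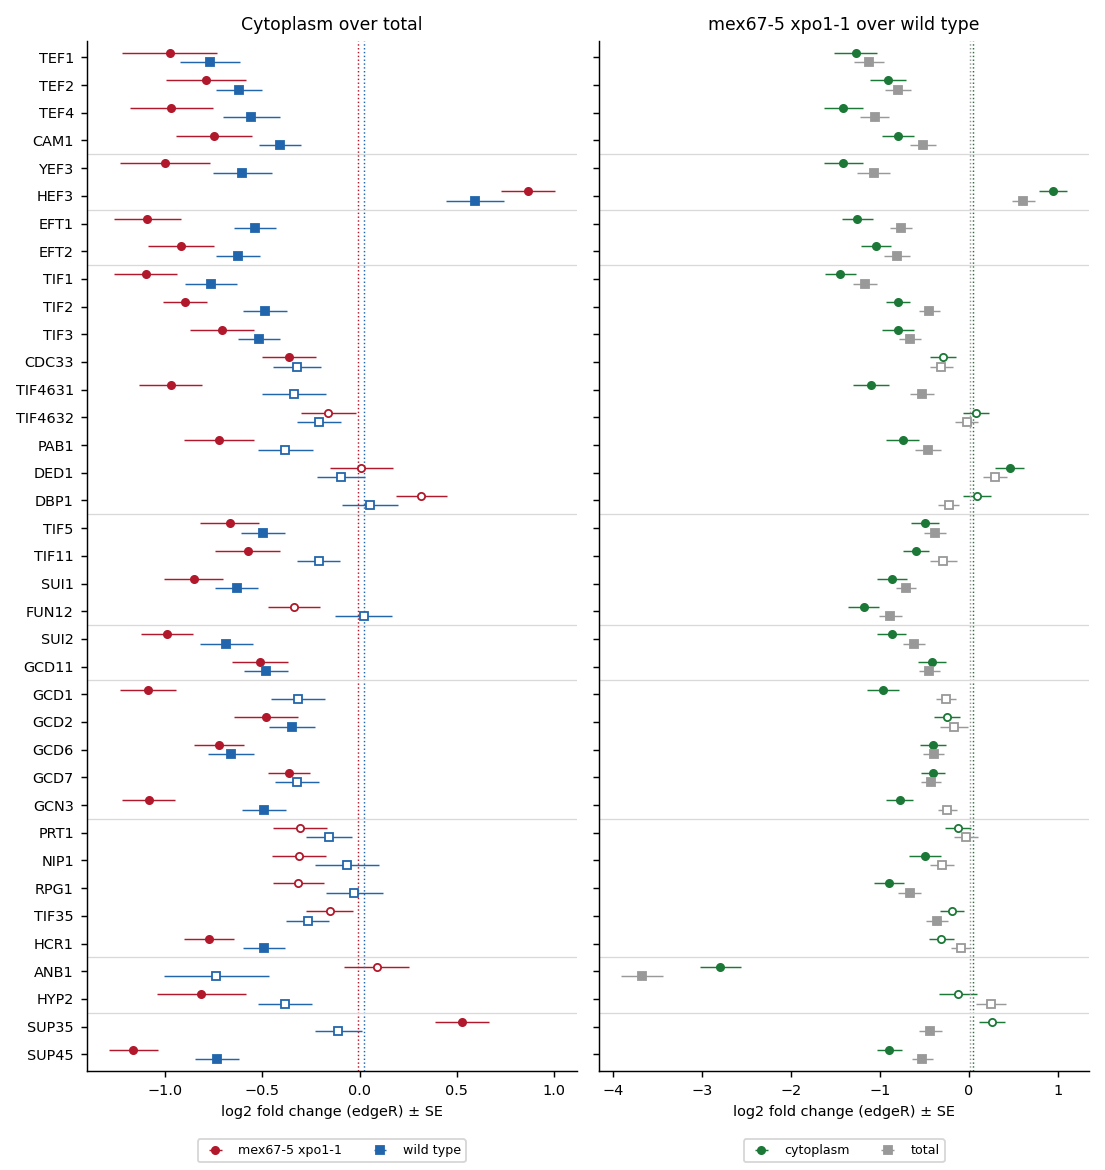
Log2 fold change ± SE of each of the 37 mRNAs from edgeR, cytoplasm over total on the left and mex67-5 xpo1-1 over wild type on the right. Filled symbols passed an adjusted p under 0.05, and dotted lines give the median of all features tested. HEF3 lies right of these medians in all 4 comparisons, SUP35 right of it for mutant cytoplasm over mutant total, and ANB1 farthest left for the mutant over wild type.

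Of the factors for start codon recognition and subunit joining, TIF5 (eIF5) and SUI1 (eIF1) were lower in the cytoplasm of both strains, and TIF11 was lower in mutant cytoplasm and not called in wild type with or without the replicate block. SUI1 fell by 0.85 in mutant cytoplasm and by 0.63 in wild-type cytoplasm on the log2 scale. FUN12 (eIF5B), with a log2 fold change of -0.34 ± 0.13 in the mutant, did not pass the test (adjusted p = 0.0545). Both eIF2 genes that were read, SUI2 (α subunit) and GCD11 (γ subunit), were lower in the cytoplasm of both strains, SUI2 by 0.99 in mutant cells and by 0.69 in wild-type cells. The 5 eIF2B genes were all lower in mutant cytoplasm, between -0.36 for GCD7 (β subunit) and -1.09 for GCD1 (γ subunit), and GCN3 (α subunit) stood at -1.09. Of them GCD2 (δ subunit), GCD6 (ε subunit) and GCN3 were also lower in wild-type cytoplasm, and with the replicate block GCD1 and GCD7 were as well.

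Of the 5 eIF3 genes read, HCR1 (j subunit) was lower in the cytoplasm of both strains, by 0.77 in mutant cells and by 0.49 in wild-type cells on the log2 scale. RPG1, NIP1, PRT1 and TIF35, which code for the a, c, b and g subunits, were called in neither strain, except that TIF35 was lower in wild-type cytoplasm with the replicate block (adjusted p = 0.0448). Their log2 fold changes lay between -0.31 and -0.15 for mutant cytoplasm over mutant total, and between -0.27 and -0.03 for wild-type cytoplasm over wild-type total. From 54.4% (PRT1) to 81.8% (TIF35) of the length of these 5 features lies over other genes, whose reads cannot be separated from those of eIF3.

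The 2 release factors went opposite ways in the mutant. SUP45 (eRF1) had 60.0, 51.0 and 62.0 RPKM in mutant cytoplasm against 133, 126 and 121 RPKM in mutant total, and 116, 102 and 107 RPKM in wild-type cytoplasm against 203, 172 and 178 RPKM in wild-type total. Its decrease in mutant cytoplasm, by 1.16 ± 0.13 on the log2 scale (SE, adjusted p = 0.000184), was the largest of the 37 members, and in wild-type cytoplasm it fell by 0.74 ± 0.11 (SE, adjusted p = 0.00324). SUP35 (eRF3) had 183, 163 and 204 RPKM in mutant cytoplasm against 121, 128 and 126 RPKM in mutant total, and 158, 152 and 153 RPKM in wild-type cytoplasm against 194, 153 and 164 RPKM in wild-type total. The mutant groups of SUP35 do not overlap and the wild-type groups do. SUP35 rose by 0.52 ± 0.14 in mutant cytoplasm (SE, adjusted p = 0.0101), and its change of -0.11 ± 0.12 in wild-type cytoplasm did not pass the test (adjusted p = 0.49). Both features lie wholly inside their gene, with no other coding gene on the same strand.

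Between the strains, 24 members were lower and 1 higher in mutant total than in wild-type total, and 26 were lower and 2 higher in mutant cytoplasm than in wild-type cytoplasm. Of all 12360 features tested in total lysate, 25.6% were lower and 26.9% higher, and of all 13578 features tested in cytoplasm, 28.9% were lower and 32.3% higher. Of the coding genes read in the same way, 1552 of 4656 were lower and 901 higher in total lysate, with a median of -0.13. In cytoplasm 1906 of 4766 were lower and 996 higher, with a median of -0.24. The members' median was -0.44 in total lysate, against 0.01 for all features, and -0.78 in cytoplasm, against 0.04 for all features. In all, 22 members were lower in the mutant in both fractions and 16 were lower in all 4 comparisons. The 16 hold all genes of eEF1 and eEF2, YEF3, TIF1, TIF2, TIF3, TIF5, SUI1, SUI2, GCD6, GCD11 and SUP45. TIF4632, PRT1 and DBP1 were called in none of the 4, and these comparisons share groups of libraries. The shares of all features or of all coding genes with these joint patterns were not computed. With library totals, 13 were lower and 3 higher in mutant total, and 12 were lower and 7 higher in mutant cytoplasm, with the median of all features at 0.23 and 0.57. Under mitochondrial scaling 34 were lower and 0 higher in mutant total, where 56.7% of all features were lower with a median of -0.90, and 21 were lower and 0 higher in mutant cytoplasm, where 30.4% of all features were lower with a median of -0.45. Libraries of the strains did not overlap for 30 members in total lysate, against 61.9% of all features, and for 33 in cytoplasm, against 68.2%.

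The largest change between strains was at ANB1, the eIF5A gene that yeast uses when oxygen is low, whose partner HYP2 serves in air. ANB1 had 2.94, 2.76 and 2.41 RPKM in mutant total against 34.6, 24.1 and 45.9 RPKM in wild-type total, and 2.87, 3.06 and 2.85 RPKM in mutant cytoplasm against 27.7, 15.7 and 18.3 RPKM in wild-type cytoplasm. Every mutant library lay below every wild-type library. ANB1 was 12.8-fold lower in mutant total (log2 fold change -3.67 ± 0.23, adjusted p = 5.93e-06) and 6.92-fold lower in mutant cytoplasm (log2 fold change -2.79 ± 0.23, adjusted p = 1.41e-05). The counts behind these values were 112 to 153 per mutant library and 673 to 1625 per wild-type library.

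HYP2 had 1604, 1604 and 1331 RPKM in mutant total against 1539, 1181 and 1134 RPKM in wild-type total, and 836, 642 and 1155 RPKM in mutant cytoplasm against 974, 932 and 985 RPKM in wild-type cytoplasm. The strains overlap in both fractions. Its log2 fold changes of 0.25 ± 0.17 in total lysate and -0.12 ± 0.21 in cytoplasm did not pass the test (adjusted p = 0.227 and 0.643). Between fractions HYP2 fell by 0.81 ± 0.23 in mutant cytoplasm (SE, adjusted p = 0.0132). In wild-type cytoplasm its change of -0.38 had an adjusted p of 0.0572, and of 0.0217 with the replicate block. The feature from which HYP2 was read is annotated as a coding gene, YEL034C-A, which covers HYP2 on the other strand, and 12.1% of its length lies over MTC7.

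TIF1 showed the largest decrease after ANB1. It fell by 1.17 ± 0.13 in mutant total (SE, adjusted p = 0.000139) and by 1.44 ± 0.18 in mutant cytoplasm (SE, adjusted p = 0.000131). TEF1 fell by 1.12 ± 0.17 in mutant total (SE, adjusted p = 0.000646), and YEF3 by 1.41 ± 0.22 in mutant cytoplasm (SE, adjusted p = 0.00047). The near-identical partners TIF2 and TEF2 fell by 0.44 and 0.79 in mutant total. Ranks of single genes within these pairs are uncertain, as their counts are. FUN12 had 87.2, 92.5 and 84.1 RPKM in mutant total against 183, 159 and 149 RPKM in wild-type total, and 68.7, 64.8 and 79.8 RPKM in mutant cytoplasm against 191, 138 and 160 RPKM in wild-type cytoplasm. It fell by 0.88 ± 0.13 in mutant total (SE, adjusted p = 0.000555) and by 1.18 ± 0.17 in mutant cytoplasm (SE, adjusted p = 0.000344), in contrast to its fraction comparisons, which were not called. The mutant libraries of TIF1, TEF1, YEF3 and FUN12 lay below all wild-type libraries of the same fraction.

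Higher in the mutant were HEF3, in both fractions, and DED1, in cytoplasm. HEF3 rose by 0.62 ± 0.13 in mutant total (SE, adjusted p = 0.00354) and by 0.95 ± 0.16 in mutant cytoplasm (SE, adjusted p = 0.000717). Under mitochondrial scaling its change in total lysate was -0.25 (adjusted p = 0.542) and that in cytoplasm 0.48 (adjusted p = 0.32). DED1 rose by 0.46 ± 0.16 in mutant cytoplasm (SE, adjusted p = 0.0306), and its change of 0.30 ± 0.14 in total lysate had an adjusted p of 0.0977. The DED1 call was lost without mutant cytoplasm replicate 1 (adjusted p = 0.0587) or replicate 3 (adjusted p = 0.0558), without wild-type cytoplasm replicate 2 (adjusted p = 0.061) or replicate 3 (adjusted p = 0.131), and under mitochondrial scaling (adjusted p = 0.984).

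**Figure D3:**
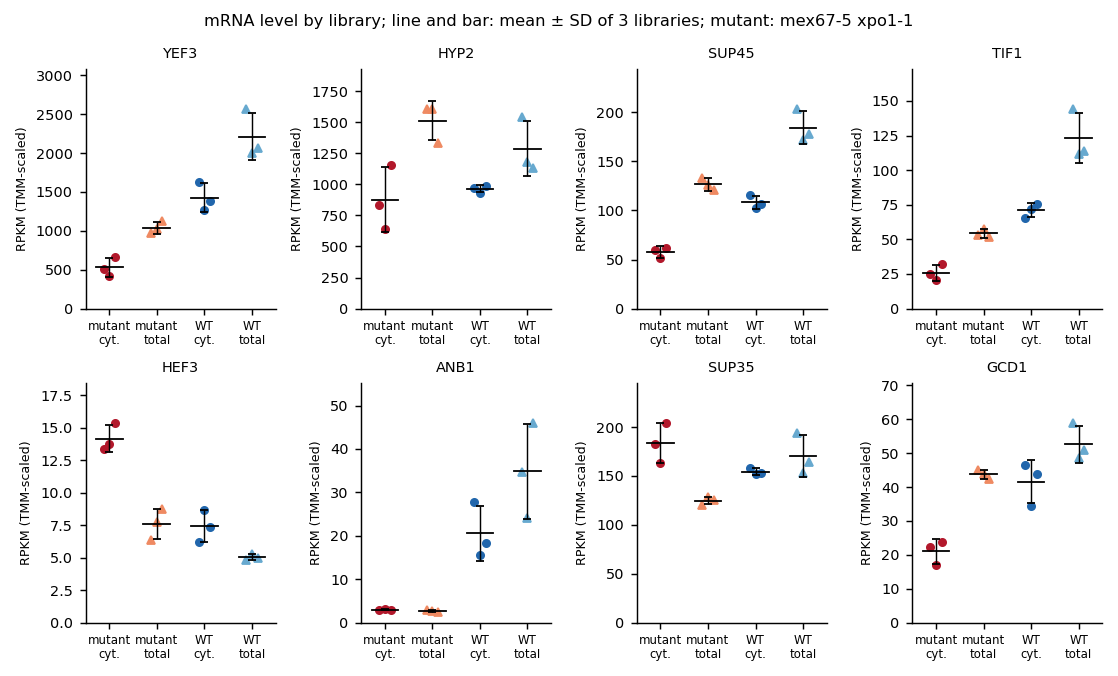
mRNA level of 8 members in each library, in TMM-scaled RPKM on linear axes from 0, with black lines for the mean and bars for the SD of 3 libraries. HEF3 is highest in mutant cytoplasm and YEF3 lowest there, ANB1 lies between 2.41 and 3.06 RPKM in the 6 mutant libraries, and SUP35 is higher in mutant cytoplasm than in mutant total while SUP45 is lower.

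An interaction term fitted over the 12 libraries tested if the strains differed in their ratio of cytoplasm to total. Only 2 of the 37 members passed, 1 in each direction, beside 4.57% of 13145 features higher and 5.68% lower. At an unadjusted p under 0.05 there were 8 of the 37, beside 1399 of 4721 coding genes read in the same way. The members' median was -0.19, against -0.10 for all features. SUP35 had a ratio that was higher in the mutant by 0.69 ± 0.18 on the log2 scale (SE, adjusted p = 0.0289). GCD1 had 22.2, 17.0 and 23.9 RPKM in mutant cytoplasm against 44.9, 43.9 and 42.3 RPKM in mutant total, and 46.4, 34.3 and 43.7 RPKM in wild-type cytoplasm against 58.9, 48.4 and 50.8 RPKM in wild-type total. Mutant cytoplasm lies apart from the other 3 groups. The GCD1 ratio was lower in the mutant by 0.71 ± 0.21 (SE, adjusted p = 0.0484), and its change of -0.32 in wild-type cytoplasm had an adjusted p of 0.103, or of 0.0213 with the replicate block.

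Both calls are near the threshold, and under mitochondrial scaling neither passed (adjusted p = 0.432 for SUP35 and 0.946 for GCD1). Under that scaling only 0.63% of all features were higher and 0.08% lower for the ratio, so losing a call there is not particular to these genes. Under TMM scaling SUP35 lost its call without mutant total replicate 1 (adjusted p = 0.0681), wild-type cytoplasm replicate 3 (0.0739), wild-type total replicate 1 (0.0694) or wild-type total replicate 3 (0.0596), and GCD1 kept its call only without mutant cytoplasm replicate 3 or wild-type cytoplasm replicate 2 (adjusted p between 0.0155 and 0.141 over the 12 libraries left out). Although 7 members were lower in mutant cytoplasm and not called in wild-type cytoplasm (CDC33, TIF4631, TIF11, GCD1, GCD7, PAB1 and HYP2), all of them but TIF11 were called lower there with the replicate block, and the ratio itself differed by the test for GCD1 alone among them.

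Other genes that act with these factors were read in the same way. Of 34 such genes in the annotation 33 could be read. In mutant cytoplasm 22 were lower and 2 higher than in mutant total, and in wild-type cytoplasm 8 were lower and 4 higher than in wild-type total. Between strains 21 were lower and 1 higher in mutant total, and 26 were lower and 1 higher in mutant cytoplasm. NEW1, a relative of eEF3, was lower in mutant total by 1.38 and in mutant cytoplasm by 1.83, DYS1, which starts the hypusine modification of eIF5A, by 1.16 and 1.23, and CLU1, which associates with eIF3, by 1.02 and 1.35 on the log2 scale. GCN4, the transcription factor induced when eIF2 is short of GTP, was higher in wild-type cytoplasm by 0.51 (adjusted p = 0.0168), and lower in mutant cytoplasm than in wild-type cytoplasm by 0.57 (adjusted p = 0.0114). The genes of cytosolic ribosomal proteins had a median log2 fold change of -0.84 in mutant cytoplasm against mutant total with 120 of 130 lower, and of -0.41 in wild-type cytoplasm against wild-type total with 64 of 130 lower. Ribosome assembly factors had medians of -0.91 with 30 of 36 lower in the mutant and of -0.31 with 10 of 36 lower in wild type. All coding genes read this way had medians of -0.22 between the mutant fractions and -0.04 between the wild-type fractions. The differences between these lists were not tested.

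The antisense signal was below the mRNA level in every library for 35 of the 37 members, the exceptions being SUI2 and GCD1, and at most 10% of it in every library for 27. On the opposite strand 17 of the 39 members overlap another coding gene and 8 an annotated lncRNA. Where a coding gene overlaps, its mRNA and an antisense RNA of the member cannot be told apart. Of the antisense signals that could be tested, 10 were higher and 5 lower in mutant cytoplasm than in mutant total (of 25), and 5 were higher and 4 lower in wild-type cytoplasm than in wild-type total (of 24). Between strains 9 were higher and 4 lower in mutant total (of 23), and 10 were higher and 8 lower in mutant cytoplasm (of 28). Of the antisense signals of all coding genes, 38.2% were higher and 21.7% lower between the mutant fractions, 23.8 and 15.6% between the wild-type fractions, 31.1 and 19.3% in mutant total against wild-type total, and 38.3 and 20.3% in mutant cytoplasm against wild-type cytoplasm. The members' 10 and 5 of 25 and 5 and 4 of 24 in the fraction comparisons lie near these shares. Among the 22 members with no overlapping coding gene, 6 of 10 tested were higher and 0 lower in mutant cytoplasm against mutant total. In wild-type cytoplasm against wild-type total, 1 was higher and 1 lower of 9 tested. Between strains, 4 were higher and 1 lower of 8 in total lysate, and 6 were higher and 1 lower of 13 in cytoplasm. For the ratio, 0 of 10 passed. The shares among all coding genes without such an overlap were not computed.

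SUI2, the α subunit of eIF2, had the largest antisense change between the strains. Its own feature overlaps the lncRNA ST5524 and no coding gene on the opposite strand. The antisense level was 27.9, 34.8 and 15.4 RPKM in mutant cytoplasm against 7.11, 6.10 and 7.96 RPKM in mutant total, and 1.38, 3.20 and 2.46 RPKM in wild-type cytoplasm against 1.37, 0.723 and 0.817 RPKM in wild-type total. Mutant libraries lay above all wild-type libraries in both fractions. The signal was higher in the mutant by 3.47 ± 0.36 in cytoplasm (SE, adjusted p = 4.94e-05) and by 2.86 ± 0.24 in total lysate (SE, adjusted p = 2.36e-05). Between fractions it was higher in cytoplasm by 1.85 ± 0.26 in the mutant (SE, adjusted p = 0.000551) and by 1.31 ± 0.37 in wild type (SE, adjusted p = 0.0245). The wild-type call was lost without wild-type cytoplasm replicate 2 (adjusted p = 0.0639) or 3 (adjusted p = 0.0779), or without wild-type total replicate 2 (adjusted p = 0.0747) or 3 (adjusted p = 0.0855). As a share of the SUI2 mRNA level, the antisense signal averaged 69.7% in mutant cytoplasm against 9.29% in mutant total, and 3.40% in wild-type cytoplasm against 0.806% in wild-type total. The SUI2 mRNA itself fell by 0.87 ± 0.16 in mutant cytoplasm relative to wild-type cytoplasm (SE, adjusted p = 0.00135) and by 0.62 ± 0.13 in mutant total relative to wild-type total (SE, adjusted p = 0.00305).

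The antisense ratio of cytoplasm to total differed between the strains at DED1, HYP2 and TIF4632. DED1 antisense had 1.27, 1.25 and 0.989 RPKM in mutant cytoplasm against 2.01, 1.62 and 2.08 RPKM in mutant total, and 3.17, 3.15 and 3.13 RPKM in wild-type cytoplasm against 2.16, 2.26 and 2.10 RPKM in wild-type total. It was lower in mutant cytoplasm by 0.73 and higher in wild-type cytoplasm by 0.57, without overlap in either strain, and the ratio changed by -1.24 ± 0.21 (SE, adjusted p = 0.00427). The feature holds the lncRNA ST6852 and, over 341 bases, the coding gene GEP3.

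HYP2 antisense had 2.70, 3.75 and 4.39 RPKM in mutant cytoplasm against 17.5, 13.4 and 7.75 RPKM in mutant total, and 3.28, 4.61 and 2.98 RPKM in wild-type cytoplasm against 4.15, 5.57 and 4.20 RPKM in wild-type total. Only mutant total stands apart. The ratio changed by -1.49 ± 0.42 (SE, adjusted p = 0.0401). TIF4632 antisense had 0.732, 0.647 and 0.649 RPKM in mutant cytoplasm against 1.69, 1.74 and 1.64 RPKM in mutant total, and 1.53, 1.25 and 1.29 RPKM in wild-type cytoplasm against 2.22, 1.99 and 1.81 RPKM in wild-type total. It was lower in the cytoplasm of both strains, and its ratio changed by -0.75 ± 0.21 (SE, adjusted p = 0.0386). The whole HYP2 gene lies under YEL034C-A and 405 bases of TIF4632 under TYW3. The HYP2 call remained only without mutant cytoplasm replicate 3, mutant total replicate 3, wild-type cytoplasm replicate 1 or wild-type total replicate 2, and the TIF4632 call only without wild-type cytoplasm replicate 2 or wild-type total replicate 1, with adjusted p up to 0.114 and 0.113 without another library. Under mitochondrial scaling no antisense ratio passed, with an adjusted p of 0.555 for DED1, 0.506 for HYP2 and 0.897 for TIF4632. Few features of any kind passed for the ratio under that scaling, 0.63% higher and 0.08% lower.

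GCD1 shares 281 bases with RPN8 on the opposite strand, and its antisense signal was 35.0, 38.8 and 36.6 RPKM in mutant cytoplasm against 20.0, 15.4 and 19.6 RPKM in mutant total, and 9.15, 19.0 and 12.7 RPKM in wild-type cytoplasm against 13.3, 14.7 and 11.9 RPKM in wild-type total. In mutant cytoplasm it exceeded the mRNA level, at 180% on average. It was higher in mutant cytoplasm than in mutant total by 0.98 ± 0.13 (SE, adjusted p = 0.000405), and its change of the ratio by 0.96 had an adjusted p of 0.0522. DBP1 antisense, with no coding gene opposite, had 3.68, 3.20 and 2.29 RPKM in mutant cytoplasm against 1.82, 1.43 and 1.84 RPKM in mutant total, and 1.10, 1.25 and 0.857 RPKM in wild-type cytoplasm against 1.08, 0.764 and 0.854 RPKM in wild-type total. It was higher in the mutant by 1.53 ± 0.24 in cytoplasm (SE, adjusted p = 0.00055) and by 0.93 ± 0.21 in total lysate (SE, adjusted p = 0.00508).

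FUN12 antisense had 1.94, 2.01 and 1.48 RPKM in mutant cytoplasm against 0.769, 0.692 and 0.50 RPKM in mutant total, and 1.40, 2.68 and 1.55 RPKM in wild-type cytoplasm against 0.964, 0.605 and 0.664 RPKM in wild-type total. Its cytoplasmic libraries lay above those of total lysate in both strains. It was higher in mutant cytoplasm than in mutant total by 1.45 ± 0.21 (SE, adjusted p = 0.000668) and higher in wild-type cytoplasm than in wild-type total by 1.37 ± 0.30 (SE, adjusted p = 0.0101). Of this feature, 505 bases lie under YAL034C-B.

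**Figure D4:**
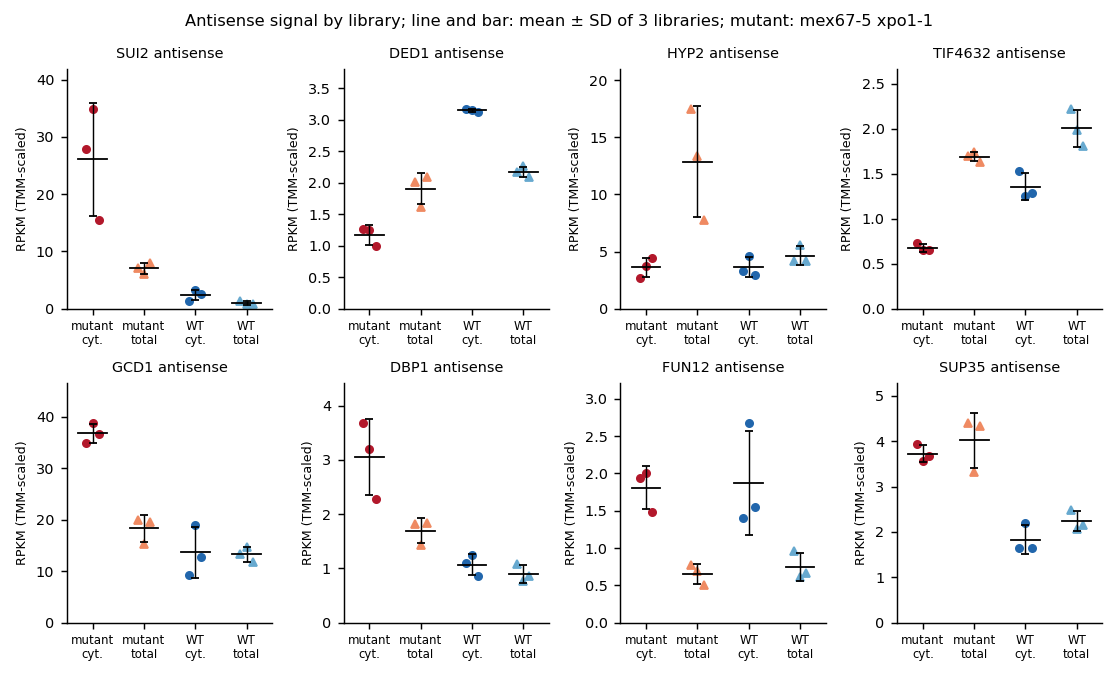
Antisense signal of 8 members in each library, read from the gene's own feature in TMM-scaled RPKM on linear axes from 0, with black lines for the mean and bars for the SD of 3 libraries. SUI2 antisense is above 6 RPKM in the 6 mutant libraries and below 3.3 RPKM in the wild-type libraries, and DED1 antisense is lowest in mutant cytoplasm and highest in wild-type cytoplasm.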

How the data were processed

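The authors aligned single 50-base reads of 12 libraries to sacCer3 with STAR (version 2.5.2a), allowing 2 mismatches, and counted them with featureCounts (version 1.5.0-p1) over an annotation with UTRs, lncRNAs and antisense and intergenic features. They deposited raw counts per feature, without normalization. Strand, overlap and multi-mapping settings are not given in the sources used here. The labelled kit does not mark strand.

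From the deposited counts, edgeR (4.0.16, in R 4.3.3) fitted quasi-likelihood models with TMM factors, and p-values were adjusted after Benjamini-Hochberg over all features with a mean count above 40, with 6 libraries for each pair of groups and 12 for the interaction. RPKM were computed from the counts. p-values measure the spread between the 3 samples of a group. DESeq2 (version 1.42.0, the tool of the study's methods) was an alternative, beside other scalings and filters, a replicate block, a fit over all libraries, other features for the mRNA and leaving out each library. Same-numbered libraries of the wild-type fractions deviated together (correlations 0.245, 0.394 and 0.115), and a shared number was taken as a pair there. Yet wild-type cytoplasm replicate 1 and total replicate 3 also correlated, at 0.105. Same-numbered cytoplasmic libraries of the 2 strains, which share no culture, deviated together as well (0.0936, 0.274 and 0.180). The correlations thus cannot show which libraries share a culture. In the mutant, same-numbered fractions did not deviate together (0.383, -0.355 and -0.190). There cytoplasm replicate 3 correlated with total replicate 2 at 0.451, and cytoplasm replicate 2 with total replicates 1 and 3 at 0.234 and 0.227. By the study's methods, the total lysate was a part of the shifted culture that was then fractionated. The fractions are thus not independent samples in either strain, but which libraries share a culture is not known. The main fits do not use pairs.

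The members, lists and rules were chosen with earlier results of these data known. Values in every library are given for up to 3 called members with the largest changes in each direction of a comparison, for duplicated pairs and for the 6 antisense signals with the smallest adjusted p. FUN12 mRNA, HYP2 antisense and the fold changes of HEF3 antisense were added after their values were seen. Python (version 3.11.15) was used for summaries.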

Additional observations from a re-analysis of the deposited data

Results flagged for a closer look

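At 5 signals the ratio of cytoplasm to total differed between the mutant and wild type by the interaction test of edgeR with Benjamini-Hochberg adjustment, on the log2 scale. The mRNA of SUP35 (0.69, adjusted p = 0.0289) had a higher ratio in the mutant. The mRNA of GCD1 (-0.71, adjusted p = 0.0484) and the antisense signals of DED1 (-1.24, adjusted p = 0.00427), TIF4632 (-0.75, adjusted p = 0.0386) and HYP2 (-1.49, adjusted p = 0.0401) had a lower one. The DED1 antisense call was kept without each of the 12 libraries, and each of the other 4 was lost without at least 4 of them. Under mitochondrial scaling none of the 5 passed (adjusted p between 0.432 and 0.946), where only 0.63% of all features were higher and 0.08% lower.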

How the results depend on the processing

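Under mitochondrial scaling 17 members were higher and 0 lower in mutant cytoplasm against mutant total, 26 and 0 in wild-type cytoplasm against wild-type total, 0 were higher between the strains in either fraction, and 0 passed in either direction for the ratio, where 0 antisense signals passed too, while 22 antisense signals were called between the wild-type fractions. The mitochondrial features are themselves a smaller share of the counts in cytoplasm than in total lysate. With this scaling all 26 mRNAs lower between the mutant fractions and all 19 between the wild-type fractions had a log2 change above 0, among them EFT1 (0.56), TIF1 (0.58) and SUP45 (0.48) between the mutant fractions, and TEF1 (0.34), TIF1 (0.35) and SUP45 (0.39) between the wild-type fractions, and HEF3 reversed between mutant total and wild-type total (-0.25). With library totals 6 were higher and 11 lower between the mutant fractions, 3 and 13 between mutant total and wild-type total, 7 and 12 between mutant cytoplasm and wild-type cytoplasm, and 2 and 0 for the ratio. With DESeq2 size factors 1 member was higher in mutant cytoplasm than in wild-type cytoplasm, as without a filter (1) and with edgeR's own filter (1), and 0 were lower for the ratio. Without a filter and with edgeR's filter the ratio had 0 higher and 0 lower. Features lying mostly inside the gene, which leave 16 members, gave 9 lower between the wild-type fractions, 11 between the mutant fractions, 11 in mutant total and 12 in mutant cytoplasm, and the 16 members with at most 15% of another gene, a choice made after seeing the data, gave 7, 10, 10 and 11. Reading each member's own feature gave 5 higher and 4 lower between the wild-type fractions, 10 and 5 between the mutant fractions, 9 and 4 in mutant total, 10 and 8 in mutant cytoplasm, and 0 and 3 for the ratio. Without each library in turn, the members lower were 20 to 29 between the mutant fractions, 15 to 21 between the wild-type fractions, 17 to 24 in mutant total, 20 to 27 in mutant cytoplasm and 0 to 2 for the ratio. The members higher were 2 to 3, 0 to 1, 1 to 1, 1 to 2 and 0 to 2 in the same order, and the antisense signals called 13 to 18, 4 to 11, 9 to 13, 15 to 18 and 1 to 3. With the replicate block 27 members were lower in wild-type cytoplasm, where the numbers were taken as pairs, with CDC33, TIF4631, GCD1, GCD7, TIF35, PAB1, ANB1 and HYP2 added. The block also raised the share of all features lower there, from 17.6 to 24.6%. Elsewhere the numbers were not taken as pairs: the block gave 24 members lower between the mutant fractions, without CDC33 and GCD2, 24 in mutant total and 26 in mutant cytoplasm, and changed no other mRNA call. Mixed features, and near-identical pairs for which the treatment of multi-mapping reads is not known, limit the values of single genes. The cause of these shifts was not tested.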
